A study of Drosophila melanogaster with 2 samples.

Results

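Many genes of Drosophila melanogaster lie head to head, on opposite strands with their starts close together, so that 1 stretch of DNA serves as the promoter of both. Of the 5828 places where binding of the transcription factor Dp was called in fly embryos, 2061 had their summit, the base of highest signal, at such a divergent promoter. That is 35.4% of the list (34.1 to 36.6). The rule asked for a summit within 500 bp of a minus-strand start of 1 protein-coding gene and of a plus-strand start of another, with the minus-strand start at the lower coordinate. The 2061 summits lay in 1775 peak intervals, and their nearest starts formed 1629 gene pairs. For comparison, 2954 summits (50.7%) lay within 500 bp of the starts of 1 gene only, 92 lay near several genes with no head-to-head pair, and 721 had no protein-coding start within that distance. Values in brackets after a share are exact binomial limits at 95%, which cover counting error only.

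The peaks came from chromatin immunoprecipitation and sequencing of whole mixed-sex embryos aged 0 to 24 h. They carried a transgene for Dp fused at its carboxyl end to green fluorescent protein. All samples belonged to this 1 group, with 2 biological replicates numbered 1 and 3, so no condition was contrasted, and whole embryos mix every cell type. The labels name Dp as the antibody target while also describing the libraries as an input control, a conflict that could not be settled here. Both replicates were called against the same control, and since only peak lists were used, read depth is unknown. The signal value of a peak is the authors' own score on an unstated scale, and classes of peaks are compared here only within the same list. Values of the 2 replicates are also set side by side, without scaling. A difference in scale or depth between their lists cannot be told apart there from one in binding.

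Dp is the partner with which E2F proteins bind DNA, and in flies it also belongs to the DREAM complex, which holds cell cycle and developmental genes silent and includes E2F2 and the Rb proteins. E2F1 with Dp activates genes for DNA replication. At a divergent promoter a single bound factor stands close to the starts of both genes, whatever the role of each.

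The stretches between the starts at 5 strong members differed in the sites they held. They were taken from 8 of the strongest members with starts 60 to 300 bp apart and the summit between them, because together they hold the 3 kinds of site marked, and none overlaps an annotated exon. Each is the dm6 plus strand, read 5′ to 3′, with the minus-strand gene to its left and the plus-strand gene to its right. Capitals mark the E2F core (TTNNCGC with C or G at each N), the cell cycle homology region or CHR (TTNGAA with C or T at N) and the DNA replication-related element or DRE (TATCGATA), each searched on both strands.
PolE2/CG5592 (chr3L:5897436-5897637): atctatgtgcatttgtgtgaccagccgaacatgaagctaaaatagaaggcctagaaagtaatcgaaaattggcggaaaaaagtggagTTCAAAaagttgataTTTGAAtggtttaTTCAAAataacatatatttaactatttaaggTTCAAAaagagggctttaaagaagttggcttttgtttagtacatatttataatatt
CG8765/Gbeta76C (chr3L:19687354-19687636): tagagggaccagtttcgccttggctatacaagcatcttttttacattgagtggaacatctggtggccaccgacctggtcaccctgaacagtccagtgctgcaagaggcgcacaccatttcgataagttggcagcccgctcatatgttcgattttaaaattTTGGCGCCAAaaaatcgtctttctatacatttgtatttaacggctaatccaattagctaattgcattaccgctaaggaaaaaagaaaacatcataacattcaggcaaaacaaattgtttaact
JhI-21/RpL7-like (chr2L:12056043-12056325): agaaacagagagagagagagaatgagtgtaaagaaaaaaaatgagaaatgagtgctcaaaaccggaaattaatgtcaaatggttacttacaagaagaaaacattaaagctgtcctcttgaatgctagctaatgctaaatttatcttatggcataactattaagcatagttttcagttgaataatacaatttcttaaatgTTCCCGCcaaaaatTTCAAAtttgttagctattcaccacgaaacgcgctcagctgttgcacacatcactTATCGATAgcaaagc
CG32832/CG31743 (chr2L:16879291-16879516): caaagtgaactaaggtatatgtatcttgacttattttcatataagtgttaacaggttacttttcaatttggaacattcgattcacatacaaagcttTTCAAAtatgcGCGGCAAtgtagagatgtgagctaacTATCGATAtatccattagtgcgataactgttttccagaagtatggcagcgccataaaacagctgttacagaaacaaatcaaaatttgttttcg
CG1492/regucalcin (chrX:12012212-12012376): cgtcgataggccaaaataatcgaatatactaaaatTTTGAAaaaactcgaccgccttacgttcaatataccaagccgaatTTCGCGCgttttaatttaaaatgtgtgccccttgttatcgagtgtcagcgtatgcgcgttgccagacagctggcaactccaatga

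Of these, PolE2/CG5592 held 4 CHR matches and no E2F core between its starts, whereas CG8765/Gbeta76C held an E2F core read on both strands from the same 10 bases, counted as 2 overlapping matches, and no CHR. Within 100 bp of the PolE2/CG5592 summit, a window reaching past the PolE2 start, 1 E2F core and 1 DRE were found. JhI-21/RpL7-like and CG32832/CG31743 each held 1 match to each of the 3 sequences. CG1492/regucalcin held 1 CHR and 1 E2F core, and its summit lay at base 92 of the 165 printed. A match describes the letters and does not show that a protein bound there.

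Head-to-head promoters were weaker Dp sites than promoters of single genes, and the gap was widest among strong peaks. The median signal value was 577 at head-to-head summits (quartiles 368 and 1032) and 772 at 1-gene summits (quartiles 384 and 2232), a ratio of 0.748. In replicate 1 the medians were 308 and 428, and in replicate 3 they were 281 and 379, giving ratios of 0.720 and 0.741. Both replicates thus placed head-to-head summits lower. The upper quartiles differed more, with a ratio of 0.462 in the thresholded list, 0.446 in replicate 1 and 0.466 in replicate 3. The lower ends were alike, with a ratio of 1.03 at the tenth percentile. Peaks are not replicates of a condition, so no test was made over them.

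**Figure D1:**
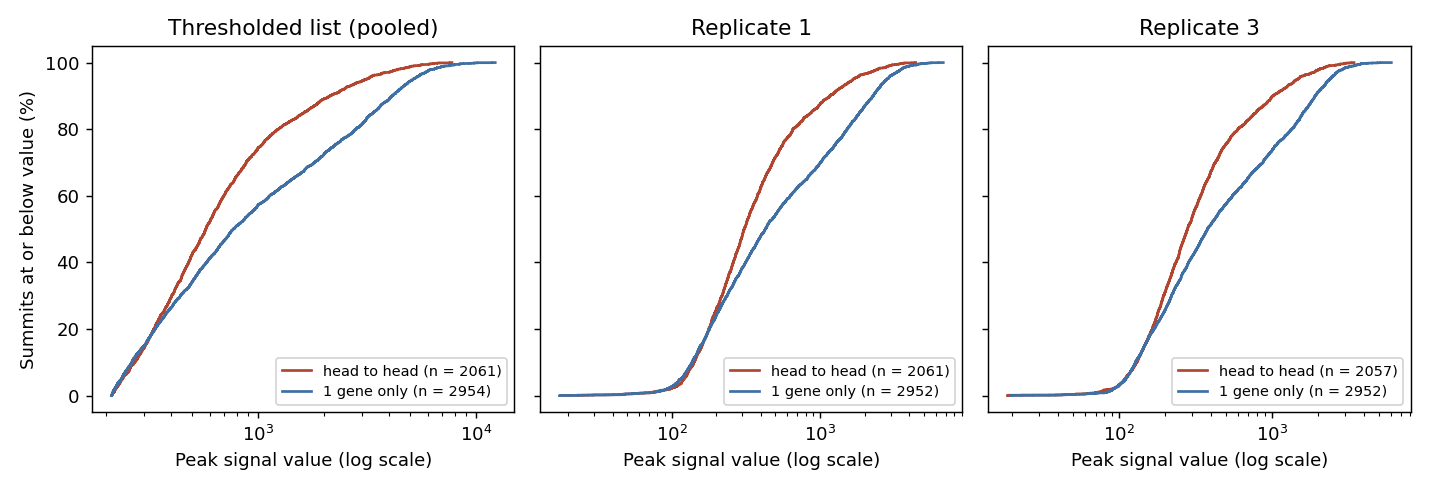
Cumulative share of summits (percent) against the authors' peak signal value (log scale) for head-to-head summits and for summits at 1 gene, in the thresholded list and at the same places in each replicate's list. The lines start together and part below the median, where the ratio is 0.748, with the head-to-head line to the left from there upward in all 3 panels.

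Among the 583 strongest peaks, 78 were head to head, which is 3.78% of the members, and 425 were 1-gene summits, which is 14.4% of that class. A signal value of at least 2000 was reached by 11.1% of head-to-head summits (9.74 to 12.5) and by 27.7% of 1-gene summits (26.1 to 29.4). Split into 10 equal bins by signal, the list held 13.4% head-to-head summits in the strongest bin (10.7 to 16.4), reached 47.9% in the seventh (43.7 to 52.0) and ended at 28.8% in the weakest (25.2 to 32.7). Their share was thus highest among peaks of middling signal. The gap varied with distance from the nearer start and was widest at 51 to 100 bp. There the medians were 603 for head-to-head and 1232 for 1-gene summits. At 0 to 50 bp, which held 50.2% of the members, they were 595 and 817. They were 497 and 612 at 101 to 200 bp, and 517 and 562 at 201 to 500 bp.

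The replicates gave like values at these places, which the authors had kept for being reproducible between replicates. The likeness in overlap and value was thus partly set by that choice. A relaxed peak of replicate 1 overlapped every member, and 4 members had none in replicate 3. Log2 of replicate 3 over replicate 1 had a median of -0.18 and an SD over members of 0.48, a 1.40-fold spread, against -0.19 and 0.49 at 1-gene summits. Of the members, 94.9% overlapped a peak among the 5828 strongest of both replicates, compared with 93.1% of 1-gene summits and 92.4% of all summits.

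The 15 strongest head-to-head summits ranked between 32 and 142 of the whole list. At the top stood Sfp26Ad/Gpdh1, named with the minus-strand gene first, with 4417 in replicate 1, 3365 in replicate 3 and 7755 in the thresholded list. Its summit lay 14 bp from the start of Gpdh1, a glycerol-3-phosphate dehydrogenase, and 325 bp from that of Sfp26Ad, a seminal fluid protein gene. CG14610/CG2656 followed with 4349, 3290 and 7613 in the same order. PolE2, which encodes a subunit of DNA polymerase epsilon, shared its summit with CG5592 at 4140, 3447 and 7560. At this pair the summit was 24 bp from the PolE2 start. CG8765/Gbeta76C, the latter a G protein beta subunit of the eye, had 3596, 3200 and 6768, with the summit 110 bp from the start of CG8765.

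Further down the 15 strongest, CG11779/nanos, the latter the posterior determinant of the embryo, had 3662 in replicate 1, 2766 in replicate 3 and 6384 in the thresholded list, and the summit lay nearer CG11779 (70 bp) than nanos (356 bp). Rab23/plx, with a small GTPase gene on the minus strand, had 3419, 3036 and 6418. JhI-21/RpL7-like, an amino acid transporter gene beside a ribosomal protein relative, had 3111, 2962 and 6037, the closest pair of replicate values of those just named. The last of the 15, dup/SRPK, joins the gene for the replication licensing factor Cdt1 with an SR protein kinase gene, and it had 3033, 2621 and 5632 with starts 110 bp apart. In all 15 the value in replicate 1 was above that in replicate 3, the direction of the median over all members.

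**Figure D2:**
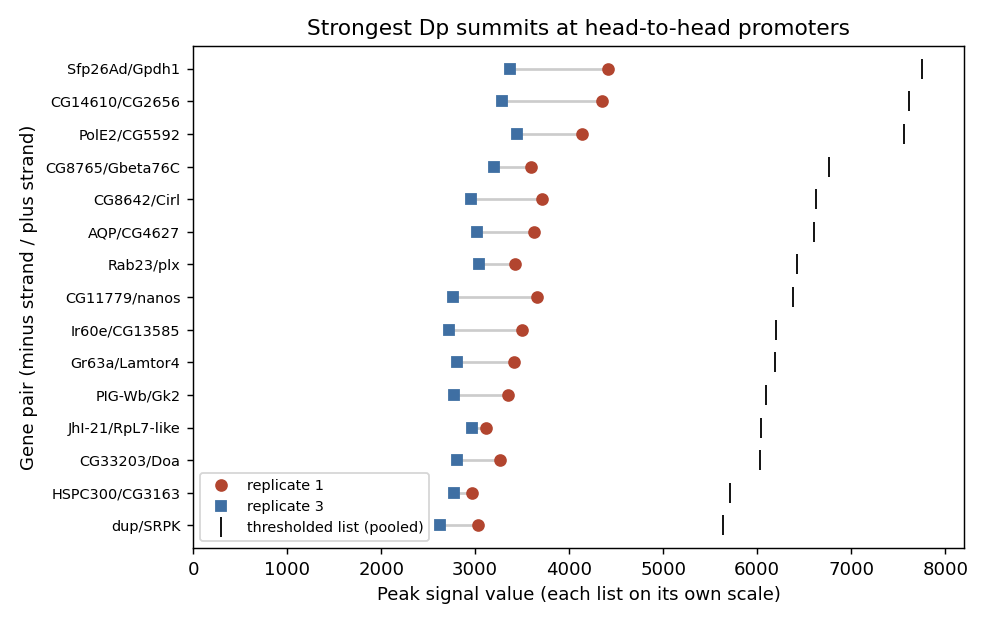
Peak signal value of the 15 strongest head-to-head summits in replicate 1 (circles), replicate 3 (squares) and the thresholded list (bars), each list on its own scale. The thresholded values run from 5632 at dup/SRPK to 7755 at Sfp26Ad/Gpdh1, and replicate 1 exceeds replicate 3 in each pair.

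At the other end, Nmda1/AspRS, with an aminoacyl-tRNA synthetase gene on the plus strand, had 129 in replicate 1, 69.6 in replicate 3 and 213 in the thresholded list. At x16/Hrb27C, both RNA-binding protein genes, the values were 165, 72.2 and 214, a log2 difference, replicate 3 minus replicate 1, of -1.19. Of the 5 weakest members, 3 were higher in replicate 1 and 2 in replicate 3. The distance limit fell among peaks of widely different strength. Just inside it were chic/eIF4A, with its farther start at 500 bp and a value of 627, SNRPG/mthl1 at 500 bp with 883 and alc/CG8788 at 498 bp with 5535. Just outside were Mco4/Srx at 501 bp with 2639 and dgt5/CG8545 at 501 bp with 1457.

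Most head-to-head promoters of the genome carried a Dp summit. Among all protein-coding genes, 5891 of 13945 (42.2%) had a summit within 500 bp of a start. Of the 8893 genes with no head-to-head partner within 1000 bp, 2203 did (24.8%), and of the 5052 with a partner, 3688 did, or 73.0% (71.8 to 74.2). Counted as pairs, 1757 of 2667 (65.9%) held a summit within 500 bp of both starts. Of the 5891 genes with a summit, 3351 (56.9%) were in such a pair. A summit between 2 starts counts for both genes, which raises the share of genes in pairs. With the rule for pairs and genes set instead at 250 bp from the midpoint or the start, the shares were 66.6% of pairs and 22.7% of lone genes. Gene classes differ in how often they lie head to head, and the part of gene class in this difference was not tested.

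Spacing between the starts went with occupancy. Summits were found at 88.1% of the 429 pairs with starts 1 to 100 bp apart (84.7 to 91.0), at 83.8% of pairs 201 to 300 bp apart and at 76.0% of pairs 401 to 500 bp apart. The share was 34.8% at 501 to 700 bp and 5.81% at 701 to 1000 bp, where a summit at 1 start is too far from the other to count. A summit within 500 bp of any start of either gene was present at 67.96% and 59.0% of the pairs in those last 2 bins. A pair has 2 genes at which a summit can fall, so these shares cannot be set against that of single genes. The bin from 101 to 200 bp was lower, at 71.4%. It held 38 of the 42 pairs in which both genes were core histones, and none of the 42 was bound. Without them its share was 79.9% (75.1 to 84.2). The histone genes stand in many nearly identical copies, and how reads of such copies were treated is not given in the sources used here.

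**Figure D3:**
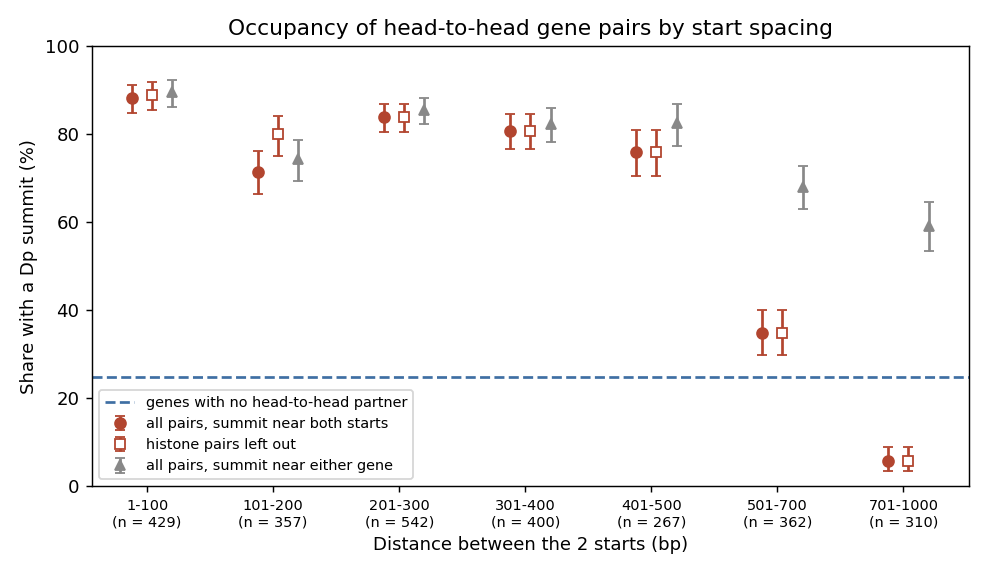
Share of annotated head-to-head pairs with a Dp summit (percent, with exact binomial 95% limits) by the distance between the starts (bp), for all pairs, without histone pairs, and for a summit near either gene. The dashed line is the 24.8% of genes with no head-to-head partner, counted as single genes and not as pairs; the share is 88.1% for the closest starts.

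Of the 910 pairs with no thresholded summit within reach of both starts, 333 (36.6%) still had one within 500 bp of a start of at least 1 of the genes. Relaxed summits within reach of both starts were present in both replicates at 216 of the 910 (23.7%), in 1 replicate at 91 and in neither at 603 (66.3%). The relaxed list of each replicate held 30000 peaks.

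Most summits lay between the starts and close to 1 of them. The starts nearest to a member summit were a median of 276 bp apart (quartiles 155 and 381), from 1 bp at CG4730/CG5039 to 869 bp at CG42238/Itgbn. Of the 2061 summits, 83.6% lay between the starts (82.0 to 85.2). These are also the summits upstream of their nearest start, as were 87.0% of 1-gene summits (85.7 to 88.2). The nearer start was a median of 50 bp away, the farther 230 bp and the midpoint 82.5 bp. This changed with spacing. For starts 301 to 400 bp apart the summit was a median of 61.0 bp from the nearer start and 111.5 bp from the midpoint, but for starts 101 to 200 bp apart these were 43.0 and 37.5 bp. At 701 to 1000 bp, where the rule admits only summits near the centre, they were 296 and 80.5 bp. Within 100 bp of the nearest start were 78.2% of head-to-head summits (76.4 to 80.0) and 65.3% of 1-gene summits (63.5 to 67.0). A summit among 2 starts has more chances of lying near 1 of them. The plus-strand start was the nearer in 57.0% (54.8 to 59.1) and the minus-strand start in 42.8%. Plus and minus are directions of the map, and the cause of this lean was not tested. Summits between the starts had a median signal of 610, and those outside had 448. At 1-gene summits the medians were 898 upstream of the start and 396 downstream.

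**Figure D4:**
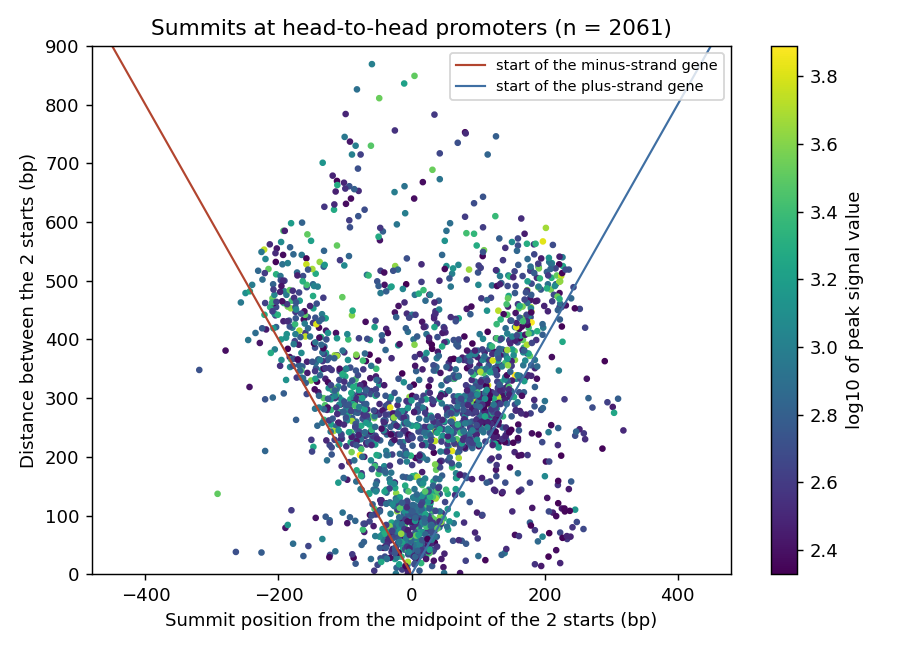
Position of each of the 2061 summits from the midpoint of the nearest starts (bp) against the distance between these starts (bp), coloured by log10 of the peak signal value; lines mark the starts. At spacings of about 200 to 500 bp summits follow both lines from the inside as 2 arms, and at the widest spacings the 500 bp limit leaves only the centre; 83.6% lie between the lines.

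Some of the pairs held more than 1 summit. Of the 1757 bound pairs, 1311 had 1 summit, 438 (24.9%) had 2 and 8 had 3. In 337 of the 438 (76.9%), the lower summit was nearer the minus-strand start and the upper nearer the plus-strand start. The stronger was a median of 1.67-fold above the weaker. The summits of such a pair were a median of 204.5 bp apart, and the smallest gap between neighbouring summits anywhere in the list was 199 bp. Closer binding events were therefore not separated in these files. Of 922 gaps of up to 500 bp between neighbouring summits, 786 were under 250 bp. Whether the 2 summits of a pair mark separate binding at each gene was not tested. In 136 of the 438 pairs the summits were at least as far apart as the starts. At SMC2/Ercc1, a condensin gene beside a nucleotide excision repair gene, the summit 14 bp from SMC2 had 1580 in replicate 1, 1308 in replicate 3 and 2879 in the thresholded list. The summit 66 bp from Ercc1 had 355, 456 and 786. The SMC2 side was the higher in both replicates.

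Sequence at the summits differed between the classes in some motifs and not in others. An E2F core lay within 100 bp of 13.97% of head-to-head summits (12.5 to 15.5), 21.2% of 1-gene summits (19.7 to 22.7) and 10.8% of all most upstream gene starts. For the CHR, which in human cells is bound by a DREAM subunit, the shares were 41.7% (39.5 to 43.8), 53.6% (51.7 to 55.4) and 33.5%. The DRE, bound by DREF, was as common in both classes, at 15.9% and 15.7% against 7.84% of all starts. Motif 1, bound by M1BP, gave 7.86% and 7.75% against 3.94%, motif 6 gave 3.74% and 3.18% against 1.67%, and motif 7 gave 14.7% and 12.1% against 7.58%. The letters TATAAA, for the TATA box, were found at 32.3% of head-to-head and 26.0% of 1-gene summits, against 29.2% of all starts. The repeat GAGAGAG was found at 0.825% and 2.81%, against 3.69%. The motifs can overlap, as a DRE can with its own reverse strand. Median GC content was 36.8% and 38.3%, and its part in these shares was not tested.

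**Figure D5:**
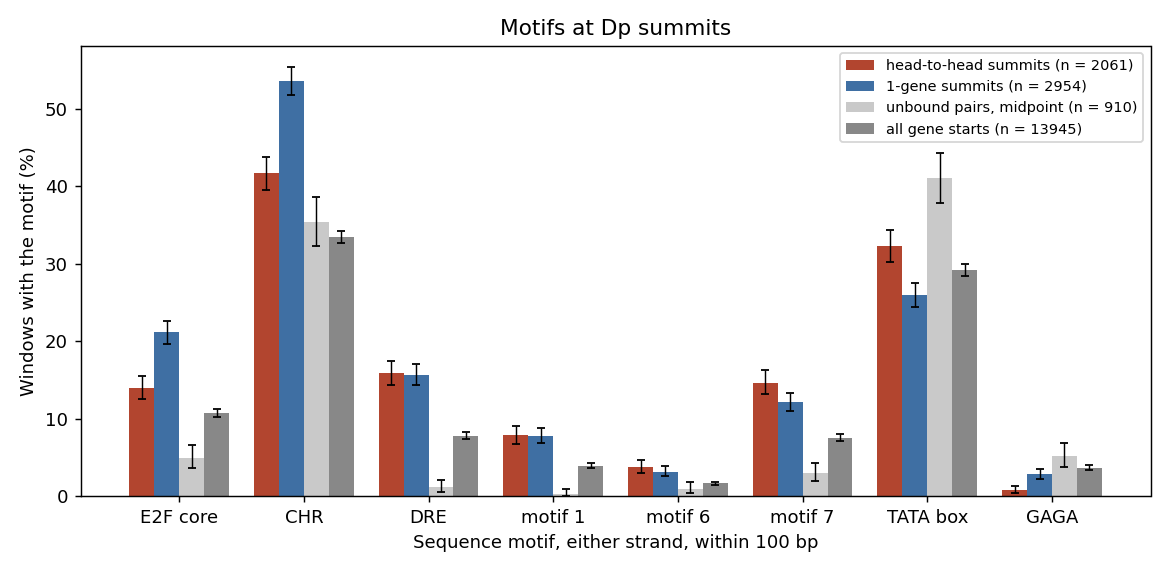
Share of windows within 100 bp that hold each motif on either strand (percent, with exact binomial 95% limits) at head-to-head summits, at 1-gene summits, at midpoints of the 910 head-to-head pairs with no summit within reach of both starts and at all gene starts. The E2F core and CHR bars of head-to-head summits stand below those of 1-gene summits, and the DRE bars are level.

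None of the E2F core, CHR, DRE and motif 1 was found at 38.3% of head-to-head summits (36.2 to 40.4) and at 28.8% of 1-gene summits (27.1 to 30.4). Among the strongest 583 peaks, an E2F core was present at 36 of 78 head-to-head summits, or 46.2% (34.8 to 57.8), and at 41.4% of the 425 1-gene summits (36.7 to 46.3). The CHR there remained less common at head-to-head summits, at 62.8% (51.1 to 73.5) against 72.9% (68.4 to 77.1). Head-to-head summits with an E2F core had a median signal of 1027 against 544 without, a ratio of 1.89 in the thresholded list and 1.87 in each replicate. At 1-gene summits that ratio was 2.71. The CHR went with a smaller difference at head-to-head summits, a ratio of 1.22 against 2.16 at 1-gene summits, and the DRE gave 1.17 against 1.89. In both replicates each of these ratios was lower at head-to-head summits. Of 351 DRE matches at member summits, 79.5% lay between the starts, as did 60.7% of E2F cores and 73.8% of CHR matches, but 42.9% of motif 1 matches.

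Between pairs with a summit in reach of both starts, called bound, and the other 910, the DRE and motif 1 differed by larger factors than the E2F core or CHR. At the midpoint of the starts, the DRE lay within 100 bp at 12.4% of 1757 bound pairs (10.8 to 13.98) and at 1.21% of 910 unbound pairs (0.605 to 2.15). Motif 1 gave 4.38% and 0.330%, and motif 7 gave 9.62% and 2.97%. GAGAGAG, a repeat bound by GAGA factor, went the other way with 0.854% and 5.16%. The E2F core differed less, at 8.42% and 4.95%, and the CHR gave 39.9% and 35.4%. The midpoint is not the summit, and spacing differs between these pairs: the starts were more than 500 bp apart at 528 of the 910 unbound pairs and at 144 of the 1757 bound pairs. Among pairs with starts up to 500 bp apart, a comparison chosen after seeing the data, the DRE gave 13.1% of 1613 bound pairs (11.5 to 14.8) and 2.09% of 382 unbound pairs (0.908 to 4.08). Motif 1 then gave 4.71% and 0.524%, motif 7 gave 10.2% and 4.97%, the E2F core 8.25% and 4.71%, and the CHR 38.9% and 32.7%. GAGAGAG gave 0.744% and 9.16%. The 42 histone pairs, many of them nearly identical copies, are among the 382, and their part in these shares was not tested.

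Most cell cycle genes were bound, and when they shared a promoter the summit was mostly nearer their own start. Over 6 lists (replication, mitosis, repair, G1/S and DREAM, chromatin assembly, nucleotide synthesis), 241 of 263 genes had a summit, or 91.6% against 42.2% of all genes. By list the share ran from 70.4% (49.8 to 86.2) in nucleotide synthesis to 98.3% (90.9 to 99.96) in repair. Of the 241, 139 (57.7%) were at a head-to-head summit, close to the 56.9% of all genes with a summit. For 106 of the 139 (76.3%, 68.3 to 83.1) the list gene had the nearest start. Over all genes this share was 49.7% (48.0 to 51.4), as the choice between the genes of a pair nearly fixes it. Over 4 housekeeping lists (cytoplasmic and mitochondrial ribosomal proteins, oxidative phosphorylation, proteasome) 229 of 303 genes (75.6%) had a summit. Of the 229, 144 (62.9%) were head to head, and 71 of the 144 (49.3%, 40.9 to 57.8) had the nearest start. The lists were chosen with earlier results of these data known, and no test was made on them.

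Signal at head-to-head summits was higher for the cell cycle genes than for the housekeeping genes or all genes. The median value at head-to-head summits was 1206 for the cell cycle genes (652 in replicate 1, 567 in replicate 3), 639 for the housekeeping genes (343 and 282) and 644 for all genes (342 and 305). Where these genes were bound away from a head-to-head summit the medians were 2268, 802 and 975, so the gap between the promoter types was present within the cell cycle lists too. Cytoplasmic ribosomal protein genes went the other way, with 866 at head-to-head summits and 699 elsewhere. Mitotic genes had the highest median of the 6 lists at shared promoters, at 1649, and chromatin assembly genes had the lowest, at 813.

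Among replication genes, after PolE2 and dup, CG31064/PolA2 had 1650 in replicate 1, 1481 in replicate 3 and 3118 in the thresholded list, with its summit on the start of PolA2, a subunit of DNA polymerase alpha. Arpc1/Orc5, an actin nucleation gene beside an origin recognition gene, had 1687, 1333 and 2995, and its summit was 17 bp from Orc5. In mitosis, Ndc80/BthD had 2423, 1935 and 4343, the summit being 19 bp from the start of Ndc80, which encodes a kinetochore protein. Zwilch/CG1542, with another kinetochore gene, had 2215, 1807 and 4003 at 8 bp from Zwilch. For cnn, a centrosome gene paired with Golgin97, the values were 1951, 1768 and 3689 and the distance 34 bp. At all 5 of these pairs the cell cycle gene had the nearer start, with starts 69 to 111 bp apart, whereas at dup/SRPK the summit was 42 bp from SRPK and 68 bp from dup.

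In the list of G1/S and DREAM genes the strongest was the promoter shared by Dp itself and Fsn, an F-box protein gene, with 2850 in replicate 1, 2056 in replicate 3 and 4853 in the thresholded list. The embryos also carried a Dp transgene, and its part in this value was not tested. Skp2/CG1103, with a ubiquitin ligase subunit gene, had 1454, 1287 and 2737. Myt1, an inhibitory kinase of Cdk1, shared a summit with Pmi at 1400, 1290 and 2673, and there the summit was 87 bp from Pmi and 373 bp from Myt1. Cks85A/TMEM216 had a higher value in replicate 3, with 1186 in replicate 1, 1392 in replicate 3 and 2550 in the thresholded list. For repair, CG30383/phr, the latter a photolyase gene, had 1640, 1553 and 3178. For nucleotide synthesis, the stronger summit of Art8/dUTPase had 1151, 1060 and 2195. It lay 26 bp from Art8, a methyltransferase gene, and 200 bp from dUTPase. Another, weaker summit of this pair lay nearer dUTPase than Art8. CG3744/CG11089, with 5003 in the thresholded list, and Nmdmc/Mst85C, with 3522, were stronger in this list. In both of those pairs the nucleotide synthesis gene, CG11089 or Nmdmc, had the nearer start.

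The annotation holds 7 head-to-head pairs of 2 cell cycle genes. Of these, 4 were bound (57.1%, 18.4 to 90.1), limits that include the 65.9% of all head-to-head pairs. The 4 were SMC2/Ercc1, Klp3A/Zw10, Bub3/Cap-D2 and barr/lok, with 7 summits and a median signal of 786. None of the 7 was among the 583 strongest peaks, where 3.78% of all members were. Klp3A/Zw10, a kinesin and a kinetochore gene, had 482 in replicate 1, 440 in replicate 3 and 916 in the thresholded list. The stronger summit of Bub3/Cap-D2, a checkpoint and a condensin gene, had 420, 399 and 804. That of barr/lok, a condensin gene and the fly Chk2 gene, had 396, 367 and 754. Much more often a cell cycle gene stood opposite a gene of neither kind of list, at 182 summits with a median of 923 and an E2F core at 26.4%. At 1695 summits, 82.2% of the members, neither gene was in these lists, and their median was 560 with an E2F core at 13.0%.

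The housekeeping genes, with the nearest start at 49.3% against 49.7% of all genes, stood near the background in that measure. Of 73 mitochondrial ribosomal protein genes 63 (86.3%) had a summit, against 42.2% of all genes. Of the 63, 48 (76.2%) were head to head with a median of 554, against 56.9% of all genes with a summit. The list gene had the nearest start in 22 of the 48. CG11674/mRpL38 was the strongest, with 1680 in replicate 1, 1404 in replicate 3 and 3080 in the thresholded list, at 29 bp from mRpL38. At if/mRpL22, an integrin gene beside the ribosomal one, the summit with 1091, 956 and 2060 was 86 bp from if. For oxidative phosphorylation, CG30161/ND-19 had 2668, 2145 and 4796 with starts 21 bp apart. In the proteasome list, Prosbeta2R2/CG1116, with a testis form of a proteasome subunit, had 2519, 2171 and 4670. At Slbp/Rpn2, which joins the histone mRNA binding protein gene with a proteasome gene, the summit lay 61 bp from Slbp with 766, 713 and 1470.

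Chemosensory and cuticle protein genes had few summits. Of 230 chemosensory genes, 8 (3.48%) had a summit, against 42.2% of all genes, and all 8 were at a head-to-head promoter, against 56.9% of all genes with a summit, and 2 of the 8 had the nearest start. Their median signal was 2244. At Gr63a/Lamtor4 the summit was 50 bp from Lamtor4, a lysosomal Ragulator subunit gene, and 247 bp from Gr63a, part of the carbon dioxide receptor, with 3414 in replicate 1, 2810 in replicate 3 and 6190 in the thresholded list. Ir60e/CG13585, with an ionotropic receptor gene, had 3501, 2719 and 6202 at 46 bp from CG13585. Obp47b/CG7741, with an odorant-binding protein gene, had 3006, 2617 and 5588 at 29 bp from CG7741. In all 3 the chemosensory gene was the farther. Of 121 cuticle protein genes 3 (2.48%) were bound, all head to head, and 2 of the 3 share 1 summit. Lcp9/CG3594 had 2171, 1512 and 3683 at 54 bp from CG3594, and at Lcp2/Lcp3 both genes encode larval cuticle proteins and the values were 709, 514 and 1219.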

How the data were processed

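Peak lists were used as deposited. Per the labels, chromatin was sheared by sonication to 200 to 800 bp. The authors deposited a relaxed list for each replicate and for their pool, and an IDR list, which keeps peaks reproducible between replicates (irreproducible discovery rate), on dm6 per the file headers. Which aligner and caller made them is not given in the sources used here. Signal values are deposited scores of the authors on an unstated scale. The −log10 q the authors deposited was the same, 4.30, for each of the 5828 peaks, so it ranked nothing. The summit offset is another deposited value, in bases from the peak start. Coordinates are 1-based.

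Starts of protein-coding transcripts came from Ensembl release 115 and sequence from the RefSeq copy of dm6; the main arms hold every peak. A replicate's value was that of its relaxed peak with the nearest summit overlapping the thresholded peak. A gene's list value is that of its strongest summit. Motifs were searched within 100 bp. Of the 15 gene lists, 12 names found no match in the annotation and were left out of the counts. Among them were ctf4 (replication) and marcal1 (repair), annotated as Ctf4 and Marcal1. Both had head-to-head summits, Ctf4/CG8067 with 2358 at the stronger and Jon25Bi/Marcal1 with 850. The members and lists were chosen with earlier results of these data known, and list membership of chemosensory genes included odorant-binding proteins. Named were the 15 strongest and 5 weakest members, the shortest and longest spacing, pairs in which both genes are in cell cycle lists, and, of the 4 strongest per list, those described. Printed stretches came from the 8 strongest members outside arm 2R with the spacing given. Shares have exact binomial 95% limits. Functions were tested on simulated data. Alternatives changed the start distance, list, start choice, pairs, class, window and value per interval. Analyses used Python 3.11.15, numpy 2.4.6, pandas 2.3.3, scipy 1.17.1 and matplotlib 3.10.9. With 2 replicates that may share a source, their spread may be technical in part.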

Additional observations from a re-analysis of the deposited data

How the results depend on the processing

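The lower signal at head-to-head summits, the higher occupancy of pairs and the lower E2F core and CHR shares kept their direction under each alternative run. The 583 strongest peaks were not among these alternatives. There the E2F core share was not lower, at 46.2% (34.8 to 57.8) of head-to-head and 41.4% (36.7 to 46.3) of 1-gene summits. The 2061 members became 1185 at a start distance of 250 bp and 913 among peaks at or above the median signal. The signal ratio of 0.748 became 0.788, 0.587, 0.714, 0.655 and 0.694 at 250 bp, among peaks above the median, with the most upstream start only, within 100 bp of a start and with 1 summit per interval. The share between the starts, 83.6%, became 89.6% above the median and 79.5% with the most upstream start. Occupancy of pairs was 59.2% at 250 bp, 60.4% at 1000 bp and 32.5% above the median. The E2F core difference of -7.18 points was -9.34 at 250 bp, -4.13 above the median and -4.92 with a 50 bp window, and that of the CHR, -11.9, was -15.5 above the median and -3.76 with the 50 bp window. The small DRE difference of 0.159 points changed sign with settings, from -2.46 above the median to 2.93 with a 200 bp window. The cause of these moves was not tested, except that fewer peaks or shorter distances leave fewer members. With either replicate's own strongest peaks, the ranges were 2043 to 2088 members, ratios of 0.718 to 0.758, 81.2% to 83.3% between the starts, 63.4% to 66.3% of pairs, and differences of -6.81 to -6.35 and -12.4 to -10.6 points. The replicate difference of -0.18 was -0.19 with the highest overlapping relaxed peak. No paired analysis was possible because there is 1 group. Unknown depth limits what an absent summit means.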

Other observations

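Germline and apoptosis genes were bound at both kinds of promoter. Of 32 germline and piRNA genes, 21 had a Dp summit (65.6%, 46.8 to 81.4), against 42.2% of all genes. Of these, 8 were at a head-to-head promoter, with a median signal of 905. That is 38.1% of those with a summit, against 56.9% over all genes. The counts leave out nanos, whose listed symbol found no match in the annotation and whose shared summit with CG11779 reached 6384. The strongest of the 8 was vret/HP1c, a piRNA pathway gene beside a heterochromatin protein gene, with 1432 in replicate 1, 1093 in replicate 3 and 2503 in the thresholded list. The nuclease gene zuc, paired with dgt2, had 1331, 1006 and 2327. Of 16 apoptosis genes 9 had a summit (56.3%, 29.9 to 80.2), limits that include the 42.2% of all genes. Of the 9, 6 (66.7%) were head to head, against 56.9% over all genes with a summit. Roc2/Buffy, the latter a Bcl-2 family gene, had 2197, 1955 and 4124. CG6685/Dronc, with an initiator caspase gene, had 485, 361 and 845.

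Members were spread over the large arms, from 32.3% of summits on X (29.5 to 35.3) to 38.2% on 3R (35.6 to 40.8). The ratio of median signal, head to head over 1 gene, was lowest on 3R at 0.607 and highest of the 5 large arms on 2R at 0.838. On chromosome 4, 1 of 24 summits was a member.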
